A study of Mus musculus with 12 samples.

Results

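Egln3, Igfbpl1, Agtr2, Fam131c, Pak3, Shox2 and Nfe2l3 are 7 of the 32286 features counted in single cells of the mouse superior mesenteric ganglion (SMG), a sympathetic ganglion. They were chosen by their measured counts in an earlier look at the same cells, as genes high in neuroblasts that are rich in the human MYCN transgene (H_MYCN) and in Cartpt, with no stated threshold. Their levels across cell types, across neuroblast clusters and beside H_MYCN are for that reason a description with no test.

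The series follows how neuroblastoma starts in Th-MYCN+/- mice, in which a rat tyrosine hydroxylase (Th) promoter drives human MYCN in catecholamine-producing cells. All 12 animals were of strain 129+Ter/SvJcl, each giving 1 droplet library of unique molecular identifiers (UMIs), which stand for captured RNA molecules. There were 10 hemizygous Th-MYCN+/- mice at 3 weeks of age, 1 hemizygous mouse at 6 weeks and 1 wild type (WT) mouse at 3 weeks. The WT and 6-week values thus come from 1 mouse each and carry no spread between animals, and the 6-week SMG was selected for a macroscopic tumour.

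Sympathetic neuroblasts divide, leave the cell cycle and mature into noradrenergic neurons under transcription factors such as HAND2 and ISL1, and neuroblastoma arises in this lineage. MYCN is a transcription factor that binds E-box DNA together with MAX, and extra copies of its gene mark aggressive human neuroblastoma. The chosen genes act in separate systems: an oxygen sensor, a secreted protein, a peptide receptor, a kinase, a gene of little-known function and a pair of transcription factors.

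The 3-week Th-MYCN libraries held 1444552 to 6388765 UMIs with a median of 3000078, the WT library 1147771 and the 6-week library 4824039. Of 16170 barcodes called as cells, 12023 were kept after filters on genes and mitochondrial UMIs. Mouse 2 of the 3-week group stood apart: 9893 of its barcodes held over 100 UMIs, against at most 2131 in any other library, and 38.7% of its UMIs lay in cells, against 61.1% to 87.1% elsewhere. Libraries shared 93 barcodes, which touch 187 cells. Mouse 2 also gave 1509 of the 2483 ganglion cells of the 3-week group, so values that move with it are given without it as well.

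Clusters were named by marker lists, and 5262 cells in 4 clusters carried the neuroblast markers, 4853 of them from the 3-week Th-MYCN mice, 374 from the 6-week mouse and 35 from the WT mouse. The WT cells had 0 UMIs of 8 of the 15 neuroblast markers, Cartpt and Dlk1 among them, and 26 UMIs of the other 7. They held 290 UMIs of ganglion markers and 299 of Schwann markers, so the data do not show them to be neuroblasts. The other large classes were ganglion cells (2705), Schwann cells (2928) and endothelial cells (512). Median depth was 2568 UMIs in 3-week neuroblasts, 1152 in 3-week ganglion cells and 969.5 in 3-week Schwann cells. It was 5678 UMIs in the 6-week neuroblasts and 321 in the WT cells of the class. Levels below are UMIs of a gene per 1000000 UMIs of the class (CPM), computed per mouse and given as mean ± SD over the 10 3-week mice, or as a pooled value with its exact 95% Poisson interval. The largest neuroblast cluster was cluster 2 at 6 weeks (147 cells) and cluster 1 at 3 weeks (2077 cells).

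The working description of the genes joins H_MYCN and Cartpt, but these features peaked in different neuroblast clusters. H_MYCN was highest in cluster 4, at 425 CPM pooled over the 3-week mice, against 200.1 in cluster 1, 279.6 in cluster 2 and 183 in cluster 12. Cartpt, which encodes a secreted neuropeptide precursor, stood at 6206 CPM in cluster 12 and at 129 to 181 CPM in the other 3. At this resolution no cluster was high in both, so the genes are called here by their names. At the coarser resolution of 0.2 a neuroblast cluster of 3013 cells had Cartpt, H_MYCN and Agtr2 among the 10 genes of largest fold difference. Among the 10 genes with the largest fold difference of cluster 4 were Agtr2 and Igfbpl1 together with H_MYCN.

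**Figure D1:**
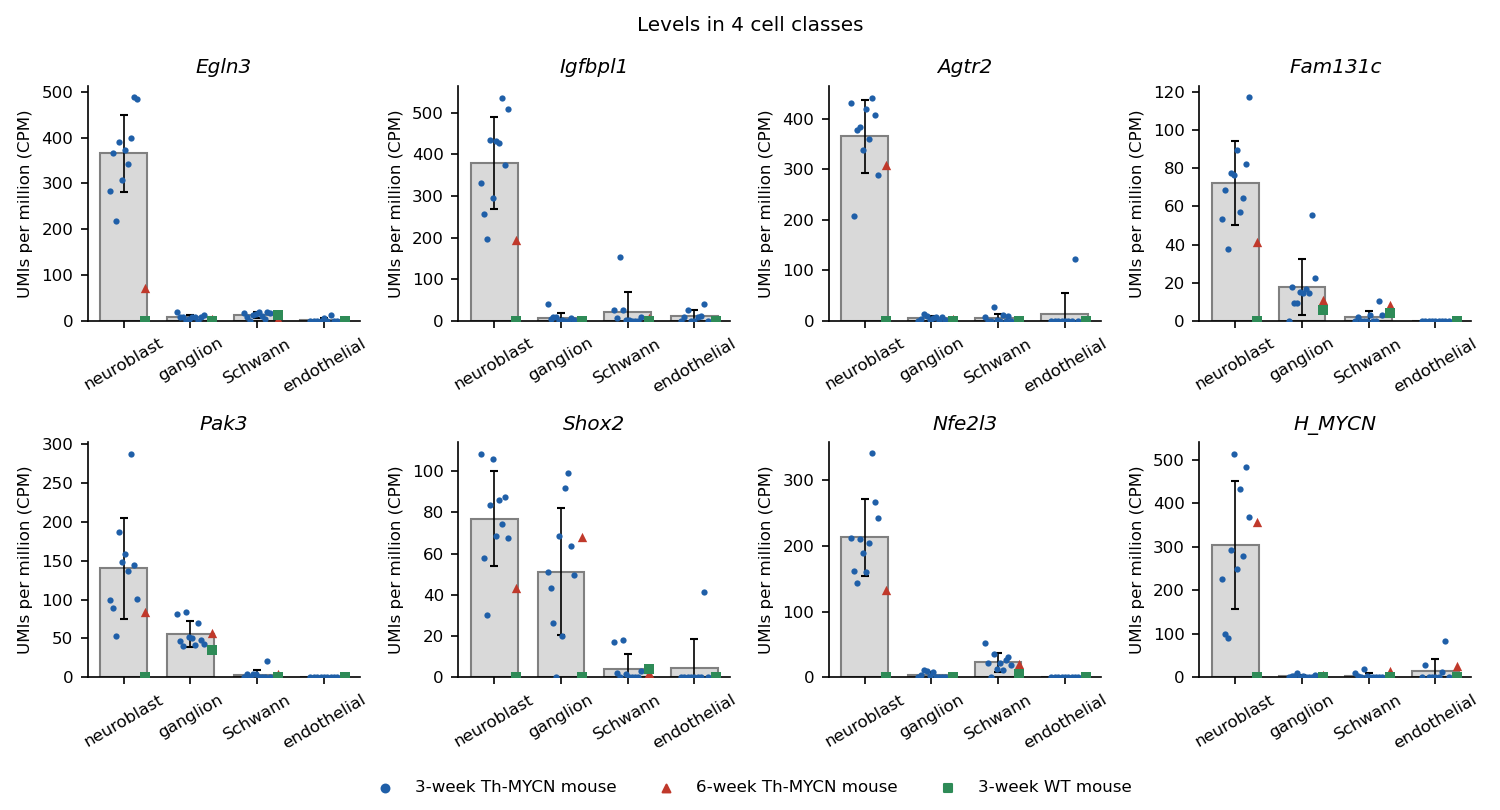
UMIs per 1000000 UMIs (CPM) of each gene and of H_MYCN in 4 cell classes; bars are means over the 3-week Th-MYCN mice with at least 10 cells of the class, error bars are the SD, and each point is 1 mouse. All 7 genes were highest in neuroblasts, and Pak3 and Shox2 also had ganglion cell levels of 55.7 and 51.3 CPM.

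Egln3 encodes a prolyl hydroxylase that uses oxygen to mark HIF alpha subunits for removal, and its protein is known for a role in the death of sympathetic neurons deprived of nerve growth factor. The gene (ENSMUSG00000035105) lies on the minus strand of GRCm38 at chr12:54178981-54203860. Neuroblasts of the 3-week mice held 366 ± 83.6 CPM (n = 10), with 219 CPM in mouse 2 as the lowest, a median of 370 and 488 in mouse 8 as the highest. The 6-week mouse, at 72.7 CPM (62.3 to 84.3; 175 UMIs), was below all 10 of them. The mean of the 3-week mice was 5.03 times the 6-week value, the largest of the ratios among the 7 genes. This difference was also present inside clusters: in cluster 4 the 6-week cells held 109.7 CPM, and the lowest 3-week mouse held 314. In cluster 2 the 6-week value was 52.4 CPM against a lowest 3-week value of 113. With 1 mouse at 6 weeks there is no spread between animals at that age, and no test was run.

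At equal depth the 3-week mean of Egln3 was again above the 6-week value, but the gap between the ages was smaller. Thinned 6-week neuroblasts held 119 CPM with and 103 CPM without a UMI of the cell cycle genes named below. The means over the 3-week mice were 420 and 417 CPM there. Mouse 2 held 100 CPM in its 10 cells without such a UMI, just under the 6-week value. All other mice were above the 6-week values on both sides. Each cell with at least 1000 UMIs was thinned to 1000, which kept 3069 of the 4853 3-week neuroblasts (median 4134 UMIs before thinning) and left out 1784. An Egln3 UMI was seen in 47.3% of cells before thinning and in 32.1% after it (95% Clopper-Pearson interval 30.4% to 33.8%). Ganglion cells gave 1.05% after thinning (1431 cells, 1052 left out, median 1758 UMIs before it). Schwann cells gave 1.20% (1085 cells, 1143 left out, median 1486 UMIs). In the 6-week mouse 10.2% of 283 thinned neuroblasts had an Egln3 UMI, and 91 shallower cells were left out. The pooled 3-week level was 51.0 times that of ganglion cells, which held 7.39 CPM (57 UMIs), and Schwann cells held 13.8 CPM (33 UMIs).

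Other oxygen-sensing genes gave the setting of Egln3 in the 3-week neuroblasts, each as its own level and not for comparison between genes. Egln1 stood at 12.2 CPM, Egln2 at 95.9 CPM and Hif1a at 58.6 CPM. Epas1 was detected at 1.13 CPM (17 UMIs) and Vegfa at 2.13 CPM (32 UMIs). Egln3 was most alike in pattern to Prox1 (r = 0.987), Cbln2 (0.986) and Mex3a (0.986), where likeness is Pearson's r of log2 CPM over the 16 clusters among 9927 genes. These points share libraries, and r is a description.

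Igfbpl1 encodes a secreted protein related to the insulin-like growth factor binding proteins (ENSMUSG00000035551, minus strand, chr4:45809468-45826923). In 3-week neuroblasts it held 379 ± 109 CPM, from 196 in mouse 2 over a median of 401 to 536 in mouse 7. The 6-week mouse, with 193 CPM (176 to 212), lay just under mouse 2 and within counting error of it, and below the 256 CPM that was lowest among the other 9. The ratio of the 3-week mean to it was 1.96. A UMI was present in 43.9% of 3-week neuroblasts and in 29.1% at 1000 UMIs, against 0.489% of ganglion and 0.553% of Schwann cells at that depth. The 6-week share at 1000 UMIs was 18.7%. Among other classes, pooled levels were 4.80 CPM in ganglion cells (37 UMIs), 7.50 in Schwann cells (18 UMIs) and 7.70 in endothelial cells (5 UMIs), a trio whose order is within counting error. In Schwann cells of mouse 2 the 154 CPM is 1 UMI in 13 cells. Without mouse 2 the ganglion level was 2.65 CPM (15 UMIs).

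Of 13 genes of insulin-like growth factor binding, Igfbpl1 alone had enough counts to enter the fits described below. Igfbp2 (17.1 CPM) and Igf1r (21.4 CPM) were detected in 3-week neuroblasts, and Igf2 had 0 UMIs, which allows up to 0.199 CPM by the floor of 3 counts. Igfbpl1 followed Pnoc (r = 0.989), Slc38a4 (0.988) and Camkv (0.986) most closely over the clusters.

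Agtr2 encodes the type 2 angiotensin receptor, a peptide receptor that is abundant in fetal tissue (ENSMUSG00000068122, plus strand, chrX:21484544-21489164). The 3-week neuroblasts held 366 ± 72.2 CPM, from 208 in mouse 10 over a median of 381 to 442 in mouse 7. At 308 CPM (286 to 331) the 6-week mouse fell inside that range, above 2 of the 10 mice. The level changed with the cluster at both ages: at 6 weeks cluster 4 held 621 CPM and cluster 2 held 189, and at 3 weeks the pooled values were 456 and 312 CPM. Cluster 12, rich in Cartpt, held 168 CPM at 3 weeks. The share of 3-week neuroblasts with an Agtr2 UMI was 39.2%, or 26.1% at 1000 UMIs, and the 6-week share at that depth was 22.6%. Ganglion cells gave 0.699% (0.406% without mouse 2) and Schwann cells 0.461%, and the pooled neuroblast level was 60.9 times that of ganglion cells. That fold was 123 without mouse 2, which held 28 of the 44 ganglion UMIs.

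Of the angiotensin system around the receptor, Atp6ap2, which encodes a renin receptor, stood at 115 CPM in these neuroblasts. Agtr1a was found at 24.6 CPM, Ace at 3.99 CPM and the precursor gene Agt at 0.731 CPM. Ren1, Agtr1b and Mas1 had 0 UMIs, which allows up to 0.199 CPM each. Agtr2 was nearest to Prrt4 (r = 0.953), Doc2a (0.9496) and Camkv (0.949) over the clusters.

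Pak3 encodes a p21-activated kinase of neurons, which binds RAC and CDC42 and acts on the actin skeleton (ENSMUSG00000031284, plus strand, chrX:143518591-143797796). Its 3-week neuroblast level was 140.4 ± 64.9 CPM, from 52.9 in mouse 2 over a median of 141 to 288 in mouse 7. The 6-week mouse had 83.5 CPM (72.3 to 95.8), below the 9 mice other than mouse 2, whose lowest was 88.9 CPM. This order did not hold for every mouse at 1000 UMIs per cell. There the 6-week cells held 102 CPM with and 131 CPM without a cell cycle UMI (18 and 14 UMIs). Mouse 1 held 87.5 and 88 CPM, and mouse 10 was also lower on both sides. Mice 3, 4 and 5 were higher on both sides, and for the rest the order turned with the side. Unlike the first 3 genes, Pak3 was also found in ganglion cells, at 55.7 ± 16.5 CPM in the 3-week mice, 57.1 at 6 weeks and 35.5 in the WT mouse (18.3 to 62.0; 12 UMIs). Its level was higher in neuroblasts than in ganglion cells in 10 of 10 mice, with a mean log2 ratio of 1.12 (SD 0.53). At 1000 UMIs 10.9% of 3-week neuroblasts (22.8% before thinning), 4.26% of ganglion cells and 0.184% of Schwann cells had a UMI, so the ganglion share is above that of a class of like depth.

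In cluster 4 Pak3 averaged 177 CPM over the mice, with 552 in mouse 7, against 93.5 in cluster 1 and 104 in cluster 2. Among its partners, Rac1 stood at 267 CPM, Cdc42 at 573, Rac3 at 70.3 and Pak1 at 64.4 in pooled 3-week neuroblasts. Crmp1 (r = 0.964), Sept3 (0.961) and Mab21l2 (0.959) had the pattern most like Pak3 over the clusters.

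Fam131c is a protein-coding gene whose function is little known (ENSMUSG00000006218, plus strand, chr4:141368220-141384175). Neuroblasts of the 3-week mice held 72.4 ± 21.9 CPM, from 37.8 in mouse 2 over a median of 72.5 to 117 in mouse 9. The 6-week mouse had 41.5 CPM (33.8 to 50.5), above mouse 2 and below the other 9, whose lowest was 53.3 CPM. At 1000 UMIs per cell this order did not hold for every mouse. There the 6-week cells held 45.5 CPM with and 56.1 CPM without a cell cycle UMI (8 and 6 UMIs). Mouse 6 held 30.5 and 36.4 CPM, and mouse 1 held 45.1 and 52 CPM. Cluster 12 was the highest for this gene, at 197 CPM pooled, against 99.2 in cluster 4. Ganglion cells held 14.9 CPM (115 UMIs), and 4 UMIs in myofibroblasts gave 38.6 CPM with an interval of 10.5 to 98.8, which overlaps the range of neuroblasts. The share of 3-week neuroblasts with a UMI was 16.8%, or 7.17% at 1000 UMIs, against 0.629% in ganglion and 0.184% in Schwann cells. Dcx (r = 0.965), Lin7a (0.958) and Fam124a (0.954) were nearest to it over the clusters.

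Shox2 encodes a homeodomain transcription factor known from limb, heart pacemaker and neuron development (ENSMUSG00000027833, minus strand, chr3:66971727-66981771). It overlaps Rsrc1 on the opposite strand. The 3-week neuroblasts held 77.0 ± 23.0 CPM, from 30.2 in mouse 2 over a median of 79.1 to 108 in mouse 1. The 6-week value of 43.2 CPM (35.3 to 52.3) was above mouse 2 and below the other 9 mice, whose lowest was 57.99 CPM. At 1000 UMIs per cell the 6-week cells held 62.5 CPM with and 65.4 CPM without a cell cycle UMI (11 and 7 UMIs). Mouse 3 held 29.1 and 107 CPM there, so the order against that mouse turned with the side. It turned in the same way against mice 5, 7, 8, 9 and 10. Mice 1, 4 and 6 were higher than the 6-week mouse on both sides, and mouse 2 had 0 CPM on both. On the cycling side the 6-week value was thus above mice 2, 3, 5, 7, 8, 9 and 10. Ganglion cells came closest to neuroblasts for this gene, at 51.3 ± 31.0 CPM, with no UMI among the 46 ganglion cells of mouse 3 and 99.02 CPM in mouse 7. The neuroblast level was above that of ganglion cells in 8 of 10 mice, with a mean log2 ratio of 0.70 and an SD of 1.02, so the gap did not exceed the spread between mice. At 6 weeks the order was turned, with 68.1 CPM in ganglion cells (52.9 to 86.3). At 1000 UMIs a Shox2 UMI was seen in 7.43% of 3-week neuroblasts (16.3% before thinning), 2.87% of ganglion cells and 0.184% of Schwann cells. Without mouse 2 the ganglion share was 5.07% (493 cells, median 7922 UMIs).

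Shox2 was highest in cluster 4 by the pooled level, 122 CPM, against 68.3 in cluster 1 and 62.5 in cluster 2. Its closest patterns were Cdk5r1 (r = 0.973), Apba2 (0.964) and Elavl3 (0.949). Other transcription factors of the sympathetic lineage were present in the same cells, with Phox2a at 394 CPM and Hand2 at 187.

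Nfe2l3 encodes a transcription factor of the cap'n'collar family, relatives of NRF2 that pair with small MAF proteins (ENSMUSG00000029832, plus strand, chr6:51432670-51458768). It held 213 ± 58.7 CPM in 3-week neuroblasts, from 143 in mouse 2 over a median of 207 to 341 in mouse 7. The 6-week mouse, with 132 CPM (118 to 148), was below 10 of 10, although its interval reaches mouse 2. The lowest of the other 9 was 161 CPM. At 1000 UMIs per cell this order did not hold for every mouse. There the 6-week cells held 216 CPM with and 183 CPM without an H_MYCN UMI, and those of mouse 6 held 152 and 157 CPM. Divided by a cell cycle UMI, the 6-week cells held 227 CPM with and 140 CPM without one (40 and 15 UMIs). The value with one was above mice 2, 4, 5, 6 and 10, and the value without one was above mouse 2 only. Schwann cells came next, at 22.1 CPM (16.6 to 28.9; 53 UMIs), and ganglion cells held 4.67 CPM (36 UMIs), or 2.47 CPM without mouse 2 (14 UMIs). At 1000 UMIs the shares with a UMI were 20.9% of neuroblasts (36.9% before thinning), 1.84% of Schwann and 0.699% of ganglion cells (0.406% without mouse 2). The Schwann share is thus higher than that of ganglion cells of greater depth. Of the family, Nfe2l1 (23.5 CPM), Nfe2l2 (1.86) and Bach2 (5.98) were also detected in neuroblasts. Gm20379 (r = 0.973), Igfbpl1 (0.970) and Sytl4 (0.969) were most like Nfe2l3 over the clusters.

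The small classes added few UMIs of any of the genes in the 3-week mice. Macrophages held 3 UMIs of Egln3 and 1 each of Agtr2 and Shox2, fibroblasts 1 each of Igfbpl1 and Agtr2, and myofibroblasts 2 of Shox2 besides the 4 of Fam131c. Natural killer and T cells had 0 of all 7, which allows up to 95.9 CPM. Endothelial cells had 0 UMIs of Fam131c, Pak3 and Nfe2l3, which allows up to 4.62 CPM, a limit far below neuroblasts. For each gene neuroblasts were first in the order of classes. Ganglion cells came next for Pak3 and Shox2 and Schwann cells for Nfe2l3. In the case of Fam131c the intervals of myofibroblasts and ganglion cells overlap, and that of Schwann cells (0.454 to 4.27 CPM) lies below them. The Egln3 intervals of Schwann cells (9.47 to 19.3 CPM) and ganglion cells (5.60 to 9.58) barely meet.

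The 35 WT cells placed in the neuroblast class had 0 UMIs of all 7 genes and of H_MYCN among 16132 UMIs, a depth that allows up to 186 CPM by the floor of 3 counts. The exact Poisson limit was 229 CPM. Both lie below the median 3-week mouse for Egln3, Igfbpl1 and Agtr2 but not, in the case of the Poisson limit, below the lowest. For Fam131c, Pak3, Shox2 and Nfe2l3 a difference was not detectable at this depth. Since these cells also had 0 UMIs of Dlk1, Ube2c and Cdk1, the zeros do not describe WT neuroblasts. WT ganglion cells had 2 UMIs of Fam131c besides the 12 of Pak3, and 0 of the other 5 genes, which allows up to 8.88 CPM. All intervals and floors cover counting error only.

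Barcodes with at most 100 UMIs, which carry free RNA, held the genes as well: summed over the 12 libraries, Egln3 stood at 102 CPM, Igfbpl1 at 122, Agtr2 at 103 and Nfe2l3 at 63.8. Fam131c (29.8 CPM), Pak3 (43.6) and Shox2 (34.4) were there too. These levels are not the share of free RNA in a cell, and that share was not tested. In ganglion cells of mouse 2 Egln3 was at 9.26 CPM beside 106 CPM in the low barcodes of that library. Igfbpl1 stood at 10.7 beside 130 CPM, Agtr2 at 13.6 beside 134 and Nfe2l3 at 10.7 beside 70.7. Fam131c was at 9.26 beside 25.9 CPM, Pak3 at 39.97 beside 40.49 and Shox2 at 26.3 beside 18.9.

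**Figure D2:**
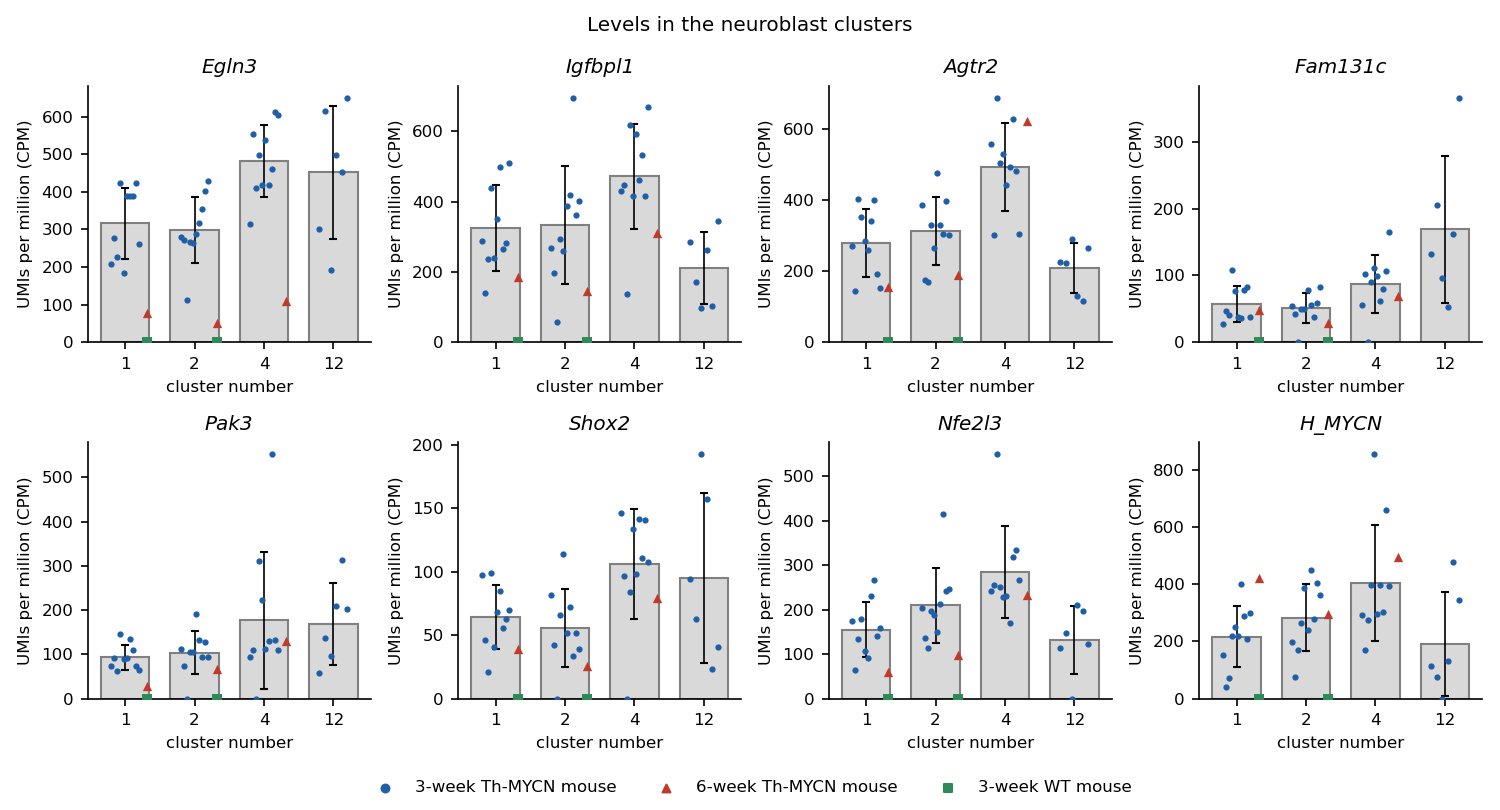
UMIs per 1000000 UMIs (CPM) of each gene and of H_MYCN in the 4 neuroblast clusters; bars are means over 3-week Th-MYCN mice with at least 10 cells in the cluster, error bars are the SD, and each point is 1 mouse. Cluster 4, where H_MYCN was highest, had the highest means of Igfbpl1, Agtr2, Pak3, Shox2 and Nfe2l3, and cluster 12 that of Fam131c. The Pak3 mean of cluster 12 was close to that of cluster 4.

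Across the neuroblast clusters the genes fell into groups by where they peaked, without being tested. In cluster 4 (1230 3-week cells) the pooled levels of Igfbpl1 (491 CPM) and Nfe2l3 (262 CPM) were the highest of the 4 clusters. Cluster 12 (131 3-week cells) had lower values of both, 189 and 147 CPM. Egln3 was alike in clusters 4 and 12, at 493 CPM in each, and lower in cluster 1 (305) and cluster 2 (316). For Pak3 the pooled level was higher in cluster 12 (271 CPM) than in cluster 4 (160.0), but the means over mice were 169 and 177 CPM, so that order rests on how cells are weighted. Cluster 1 was shallow: counting all groups, median depth was 480 UMIs there, 4969.5 in cluster 2, 3895 in cluster 4 and 3946.5 in cluster 12.

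At 1000 UMIs per cell, shares of 3-week cells with a UMI repeated some of the differences between clusters and not others. Agtr2 had a UMI in 27.9% of the cells of cluster 4 (25.4% to 30.5%) and in 14.02% of those of cluster 12 (8.06% to 22.1%). Fam131c showed the opposite order, with 9.30% in cluster 4 and 19.6% in cluster 12. Pak3 had 12.1% and 22.4%, and Shox2 had 9.21% and 5.61%. Nfe2l3, whose pooled level was higher in cluster 4, had 23.8% there and 22.4% in cluster 12. Egln3, alike in pooled level, had 34.1% and 42.1%. Igfbpl1 was found in 34.3% of cluster 4 and in 25.3% of cluster 2. The cells are pooled over mice, so the intervals cover counting only and test no difference. This depth left out 1653 cells of cluster 1 and 36 of cluster 4.

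Among pairs of the 7 genes, the cluster patterns were closest for Egln3 and Igfbpl1 (r = 0.971) and least close for Pak3 and Nfe2l3 (0.643). Pak3 and Shox2, the genes found in ganglion cells, had r = 0.868 with each other.

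In single neuroblasts the number of cells with a pair of genes was set beside the number that their shares within each mouse give. The cells are pooled and are not replicates, and H_MYCN and Cartpt took part in the choice, so the ratios are a description. Of 3069 thinned cells, 23.1% had a UMI of none, 37.2% of 1 gene, 26.0% of 2 and 11.0% of 3, and no cell had all 7. The mean number was 1.34 in neuroblasts, 0.107 in ganglion cells and 0.0461 in Schwann cells. Among the 21 pairs of the 7 genes the highest ratio of observed to expected cells was 1.35, for Agtr2 with Shox2 (82 cells, 60.7 expected). With H_MYCN the ratios ran from 0.930 to 1.13. With Cartpt the ratio was 0.631 for Agtr2 (72 cells, 114 expected), 1.57 for Fam131c, 1.33 for Pak3, 1.295 for Nfe2l3 and 1.19 for Egln3. H_MYCN with Cartpt gave 0.937.

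The first split of neuroblasts asked how the genes differ between cells with and without an H_MYCN UMI at equal depth. Cells were thinned to 1000 UMIs, so that a cell without a UMI may still express the transgene. The share of cells with one ran from 4.17% in mouse 2 (1 of 24 cells) and 7.73% in mouse 10 to 40.3% in mouse 4, and was 34.3% at 6 weeks. Before thinning 41.1% of 3-week neuroblasts had a UMI, after it 24.1%, against 0.140% of ganglion and 0.369% of Schwann cells. UMIs were summed per mouse and side and compared with edgeR, with the mouse as a block. The sums of 9 mice entered, with 740 cells with and 2305 without a UMI. Mouse 2 had too few cells.

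Of 3776 genes tested in that split, 0.0265% were higher and 0.132% lower at a false discovery rate (FDR) of 0.05, which is 1 and 5 genes, and 246 had an unadjusted p under 0.05. None of the 7 chosen genes was among the 6, nor among the 4 found by DESeq2. The split uses the transgene that the choice of genes used, so their values carry no p. Nfe2l3 had the largest positive log2 fold change, 0.27 (SE 0.15), with 276 ± 56.97 CPM in cells with and 234 ± 78.9 CPM in cells without H_MYCN. Its per-mouse log2 ratio ran from -0.16 in mouse 7 over a median of 0.24 to 0.97 in mouse 5, and was above 0 in 6 of 9 mice. Some mice thus had it lower in H_MYCN cells, and the mean difference was smaller than the spread between mice.

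The other genes also differed by less than their spread between mice in this split. Log2 fold changes were 0.13 for Egln3 (higher in 5 of 9 mice), 0.06 for Igfbpl1 (6 of 9) and 0.16 for Agtr2 (6 of 9). For Shox2 the value was 0.16 (5 of 9). Pak3 had no clear direction: the fit gave 0.11, the mean of the per-mouse log2 ratios was -0.23, and the means were 139.9 CPM with and 157 CPM without H_MYCN. The log2 fold change of Fam131c was -0.24, with 67.4 CPM in cells with and 82.0 without H_MYCN, and it was above 0 in 1 of 15 settings. The median over the 7 genes was 0.13, beside 0.00211 over all genes tested. Of the other genes all but Nfe2l3 were below 0 in at least 1 setting. Cells with more H_MYCN UMIs had no steady gain of Nfe2l3: it stood at 228, 286, 244 and 280.0 CPM in cells with 0, 1, 2 and at least 3 of them (2328, 564, 127 and 50 cells).

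Among all genes, the only one higher in cells with H_MYCN was Cited2 (log2 fold change 0.51, adjusted p 0.0357, 9 of 9 mice). Apoe was lower in 9 of 9 mice (log2 fold change -2.06, adjusted p 6.44e-07). Cartpt did not pass (-0.24, adjusted p 0.916, lower in 7 of 9 mice). Of the 13 ganglion markers 12 were tested and 3 were lower, and 0 markers were without counts. Their summed level had a median of 1631 CPM with H_MYCN (1268 to 2129) and 2344 without it (1164 to 3843), lower in 7 of 9 mice. Of the 10 Schwann markers 1 was tested and did not pass, with median sums of 132 and 189.8 CPM, lower in 8 of 9 mice. Their part in the values of the 7 genes was not tested.

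**Figure D3:**
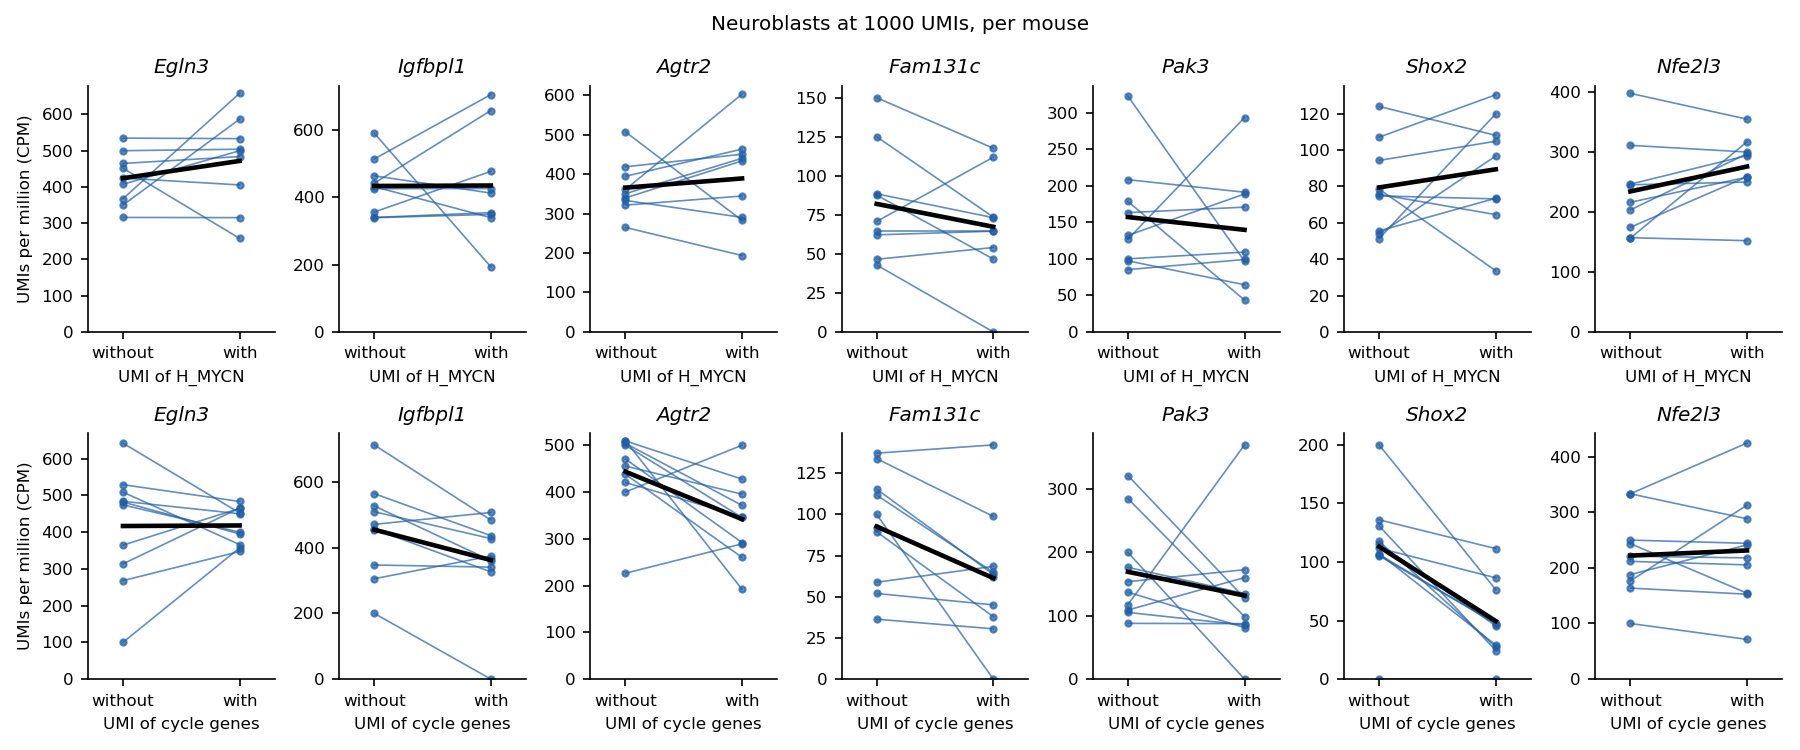
UMIs per 1000000 UMIs (CPM) of each gene in 3-week neuroblasts thinned to 1000 UMIs, without and with a UMI of H_MYCN (top, 9 mice) or of the cell cycle genes (bottom, 10 mice); thin lines join the values of 1 mouse and the thick line joins the means. Shox2 fell from a mean of 113 to 49.7 CPM in cells with a cell cycle UMI and was lower in 9 of 10 mice.

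The cell cycle split was not named in the choice of the genes, but it is not independent of that choice. A cell cycle UMI was seen in 36.6% of the cells of cluster 4, high in H_MYCN, and in 33.6% of cluster 12, high in Cartpt, against 51.7% in cluster 1 and 81.9% in cluster 2. Genes chosen for such cells thus lean towards lower levels in cycling cells, so their values in this split too are a description with no p. Neuroblasts were divided by a UMI of Mki67, Top2a, Cdk1 or Ube2c at 1000 UMIs, which gave 1793 cells with and 1276 without one in 10 mice. The share with a UMI ran from 52.1% in mouse 4 to 70.4% in mouse 6 and was 62.2% at 6 weeks. Of 4571 genes tested with edgeR, 7.5% were higher (343) and 7.02% lower (321) at FDR 0.05. Shox2 and Agtr2 were among the genes called lower, and the call of Agtr2 was lost in 4 of 15 alternatives. Nothing is read of these calls, given the choice. The median log2 fold change over the 7 was -0.39, beside -0.03 over all genes.

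Shox2 in cells with a cell cycle UMI ran from 0 CPM in mouse 2 over a median of 46.4 to 111 in mouse 1, with a mean of 49.7 ± 33.3 CPM. In cells without one it ran from 0 in mouse 2 over a median of 114 to 200 in mouse 6, with a mean of 113 ± 48.7 CPM. Mouse 2, with 14 and 10 cells, had no Shox2 UMI on either side at that small depth, and the other 9 mice all had less on the cycling side. The log2 fold change was -1.09 (SE 0.22), and -1.08 without mouse 2.

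Agtr2 on the cycling side ran from 192 CPM in mouse 7 over a median of 346 to 500 in mouse 2, with a mean of 343 ± 88.8 CPM. On the other side it ran from 226 in mouse 10 over 463 to 509.8 in mouse 7, with a mean of 443 ± 85.7 CPM. It was lower in cycling cells in 8 of 10 mice and higher in mice 2 and 10, so the ranges overlap. The log2 fold change was -0.39 (SE 0.12), with and without mouse 2.

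The other 5 genes had smaller differences than Shox2 in the cell cycle split. Igfbpl1 had a log2 fold change of -0.27 (SE 0.11, lower in 8 of 10 mice; 363 against 455 CPM). For Fam131c the log2 fold change was -0.47 (SE 0.22, lower in 8 of 10). Pak3 had -0.41 (SE 0.20, lower in 7 of 10), and its sign turned with 500 UMIs per cell (0.18). Egln3 was at -0.05 (SE 0.11), with 419.7 and 417 CPM, and its sign turned with full UMIs (0.13) and with no low-count filter (0.0226). Nfe2l3 had 0.10 (SE 0.14), with 232 against 222 CPM, but was higher in only 3 of 10 mice. With 2000 UMIs per cell its log2 fold change was 0.37, and with full UMIs 0.53.

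The genes named next changed most in each direction among those past the threshold with 1 sign in every mouse. They are no list fixed in advance. Pttg1 (log2 fold change 3.57), Cenpf (3.52) and Cdc20 (3.51) were higher in 10 of 10 mice. Apoe (-2.75), Npy (-2.70) and Sncg (-2.34) were lower in 10 of 10. Of the 13 ganglion markers 13 were tested and 13 were lower. Their sum per mouse was 962 to 1786 CPM with a cell cycle UMI (median 1239) and 1982 to 6316 without (median 3539). It was lower in 10 of 10 mice, and 0 markers were without counts. Of the 10 Schwann markers 6 were tested and 3 were lower (medians 104 and 304 CPM, lower in 9 of 10 mice), and of 14 neuroblast markers tested 8 were higher and 2 lower. Shox2 is itself found in ganglion cells, and the part of ganglion RNA in its difference was not tested. In neuroblasts with at most 2 UMIs of the ganglion markers, a setting chosen after seeing the data, the log2 fold change of Shox2 was -0.92 and that of Agtr2 -0.42 (1565 and 811 cells, 9 mice). Cartpt was lower in cycling cells (-1.05, adjusted p 6.64e-10) and H_MYCN did not pass (-0.13, adjusted p 0.555).

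In the 6-week mouse, taken alone and with no test, the same split gave a log2 ratio of -0.06 for Shox2, from 11 and 7 UMIs. Agtr2 was at -0.80 and Nfe2l3 at 0.66 in that mouse. By H_MYCN that mouse gave a log2 ratio of 0.23 for Nfe2l3 and of -0.59 for Egln3, the latter from 8 and 24 UMIs. In the cell cycle split its values of Agtr2 and Nfe2l3 lay inside the range of the 3-week mice (-1.37 to 0.34 and -0.62 to 0.79). Its Shox2 value was nearer to 0 than in the 9 3-week mice that had Shox2 UMIs.

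Of the genes' own pathway lists, 35 genes were tested in the cell cycle split and 22.9% were called, Shox2 and Agtr2 among them. Of the 28 list genes other than the chosen ones 21.4% were called, beside 14.5% of all genes tested. The lists were not tested as sets. Of 22 oxygen-sensing genes 9 were tested, with Ndrg1 higher (log2 fold change 0.80, adjusted p 0.0374), Adm lower (-1.43, adjusted p 0.00492) and a median of -0.13. Of 15 PAK kinases and partners 8 were tested and Rac3 was lower (-1.26, adjusted p 0.000137), with a median of -0.08. Of 12 sympathetic transcription factors 11 were tested. In that list Insm1 was higher (0.64, adjusted p 0.0242), while Phox2a (-1.22, adjusted p 1.15e-11), Hand2 (-0.49, adjusted p 0.0456) and Shox2 were lower, around a median of -0.06. Of 9 cap'n'collar genes and partners 3 were tested and 0 passed by edgeR (median -0.01). Igfbpl1 and Fam131c were the lone tested genes of their lists of 13 and 3. The same lists had 0 genes past the threshold by edgeR in the split by H_MYCN.

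A last split compared cells with and without H_MYCN only among neuroblasts without a cell cycle UMI (321 and 945 cells, 9 mice), which keeps both divisions of the cells apart. Of 1812 genes tested, 0% were higher and 0.552% lower (10 genes) at FDR 0.05 by edgeR, with 124 at an unadjusted p under 0.05, and DESeq2 found 0 higher and 3 lower. None of the 6 chosen genes tested was among them, of which nothing is read, given the choice. Fam131c had too few counts to enter. Nfe2l3 again had the largest log2 fold change, 0.52 (SE 0.23), with 332 ± 149 CPM with and 208 ± 74.2 CPM without H_MYCN, higher in 7 of 9 mice. Per mouse it ran from -0.15 in mouse 8 over a median of 0.49 to 2.15 in mouse 5. Igfbpl1 was higher in 8 of 9 mice (0.34, SE 0.17; 565 against 458 CPM). Pak3 had 0.35 (SE 0.31), Agtr2 0.21, Shox2 -0.05 and Egln3 -0.01. The signs of Pak3 (-1.05 to 0.63), Agtr2 (-0.04 to 0.72), Egln3 (-0.35 to 0.32), Igfbpl1 (-0.23 to 0.52) and Shox2 (-0.27 to 0.27) turned among the settings. Over 15 alternatives and the main setting Nfe2l3 lay between 0.14 and 0.61; leaving out mouse 2 changed nothing, since it did not enter. In this split 5 of 12 tested ganglion markers were lower, with median sums of 2179 and 3730 CPM, lower in 7 of 9 mice.

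Across the 10 3-week mice each gene's neuroblast level was set against the H_MYCN level and against the share of cells with a cell cycle UMI, 14 relations in all. Those with H_MYCN are a description with no p, since the transgene took part in the choice. Shox2 with H_MYCN had r = 0.76 and rho = 0.59, and r fell to 0.22 without mice 10 and 2, the mice with the least H_MYCN, so that it rests on them. Igfbpl1 with H_MYCN had r = 0.64, rho = 0.32 and r = -0.30 without those mice. None of the 7 relations with the cycling share had a permutation p under 0.05 (100000 resamples, two-sided), before or after a Benjamini-Hochberg adjustment that counts all 14 relations computed, those with H_MYCN included. With the cycling share, r ran from -0.11 for Fam131c to 0.47 for Igfbpl1 (permutation p 0.175, adjusted 0.35, and rho 0.62 with p 0.0623, adjusted 0.517), the latter at 0.53 without mice 4 and 6. The labels name no batch within the group.

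RefSeq promoter entries (GRCm38.p6, 250 bases before to 50 after a start) were found for 6 of the 7 genes, as 8 entries, and Igfbpl1 is named only. They were searched on both strands for the E-box CACGTG that MYC proteins are known to bind, for the core ACGTG of oxygen-response elements, which the E-box contains, and for GCGTG. The motifs were picked with the results known. Of all 32851 promoters 7.15% hold CACGTG, 19.6% ACGTG and 32.4% GCGTG. Of the 8 entries of the chosen genes 1 holds CACGTG, 2 hold ACGTG and 3 hold GCGTG. The entries of Agtr2, Fam131c and Nfe2l3 and 1 of the 3 Pak3 entries hold none of these. The 4 shown belong to Egln3, Pak3, Shox2 and Agtr2. Egln3 had the largest ratio of the 3-week to the 6-week level, and Pak3 has the E-box. Shox2 and Agtr2 were picked by their calls in the cell cycle split, of which nothing is read, given the choice. Capitals mark the motifs. Egln3 (chr12:54203825-54204124, minus strand) has 1 ACGTG. The first of 3 Pak3 entries (chrX:143518341-143518640, plus strand) has 1 CACGTG and 2 GCGTG. In Shox2 (chr3:66981722-66982021, minus strand) 1 GCGTG is read on the other strand as CACGC, and Agtr2 (chrX:21484374-21484673, plus strand) has none of the motifs. Their GC content was 54.7%, 59%, 53.3% and 41.3%, beside a median of 52.7% over all promoters. A match is a description of letters only.
Egln3: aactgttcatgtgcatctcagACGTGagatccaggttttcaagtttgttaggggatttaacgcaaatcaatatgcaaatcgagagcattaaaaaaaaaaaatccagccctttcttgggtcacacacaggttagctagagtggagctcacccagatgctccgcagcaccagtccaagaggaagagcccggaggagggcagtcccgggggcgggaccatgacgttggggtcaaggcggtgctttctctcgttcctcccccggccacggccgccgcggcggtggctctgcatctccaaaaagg
Pak3: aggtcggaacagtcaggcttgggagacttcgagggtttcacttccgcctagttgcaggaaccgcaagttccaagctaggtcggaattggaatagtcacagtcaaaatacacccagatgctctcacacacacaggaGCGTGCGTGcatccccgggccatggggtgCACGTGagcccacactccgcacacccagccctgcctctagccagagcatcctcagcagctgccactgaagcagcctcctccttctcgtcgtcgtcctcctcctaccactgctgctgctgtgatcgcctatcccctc
Shox2: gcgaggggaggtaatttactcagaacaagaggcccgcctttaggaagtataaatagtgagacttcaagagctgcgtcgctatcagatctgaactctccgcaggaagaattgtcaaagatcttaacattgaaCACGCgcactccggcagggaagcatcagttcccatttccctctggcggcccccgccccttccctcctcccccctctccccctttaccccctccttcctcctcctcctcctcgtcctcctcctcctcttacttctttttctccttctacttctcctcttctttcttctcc
Agtr2: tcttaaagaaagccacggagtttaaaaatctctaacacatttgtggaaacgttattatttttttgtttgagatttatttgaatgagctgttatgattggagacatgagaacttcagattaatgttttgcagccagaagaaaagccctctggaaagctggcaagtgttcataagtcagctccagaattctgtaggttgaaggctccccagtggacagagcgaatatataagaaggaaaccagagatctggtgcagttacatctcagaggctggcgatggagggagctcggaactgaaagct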

How the data were processed

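The deposited files are raw counts of UMIs per gene and barcode, which the authors made with Cell Ranger (3.0.2 per the file headers) on mm10 with human MYCN added, from Chromium 3' v1 libraries of 12 mice. The 7 genes, the pathway lists and the marker lists were chosen with earlier results of these data known. Cells were called by the EmptyDrops method (re-implemented; free RNA from barcodes with at most 100 UMIs, 10000 draws, FDR 0.01), with at least 200 genes, at most 60% ribosomal and at most 10% mitochondrial UMIs; 4029, 0 and 222 barcodes failed these, some of them more than 1. Clusters came from Seurat 5.3.0 with sctransform 0.4.2 (2000 variable genes, cell cycle scores regressed out, 30 components, resolution 0.5), with H_MYCN left out and the 7 genes kept in. A cluster took a class name when at least 80% (and at least 3) of that list's markers reached a fold of 1.5 over the median of the other clusters and detection in 10% of cells. Scrublet marked 62 cells (0.516%) as doublets, and they were kept. Each cell was thinned to 1000 UMIs for shares and splits. UMIs were summed per mouse and side with at least 10 cells, and tested with edgeR 4.0.16 (filterByExpr, TMM, quasi-likelihood, mouse as block, Benjamini-Hochberg over all genes tested, FDR 0.05). Both sums of a mouse come from 1 animal, and after removal of the mean of each side their values correlated positively in 9 of 9, 10 of 10 and 9 of 9 mice (r from 0.0374 to 0.602). Relations across mice used log2 CPM with 10 CPM added and permutation tests. Also used were Python 3.11.15, numpy 2.4.6, scipy 1.17.1, pandas 2.3.3, scanpy 1.11.5, matplotlib 3.10.9, R 4.3.3, limma 3.58.1 and DESeq2 1.42.0.

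Genes named are the 7 genes, H_MYCN, Cartpt, Dlk1, the 4 cell cycle genes, the class markers, 7 pathway lists (84 genes), in each split, for either direction, the 3 genes past the threshold that changed most and had 1 sign in every mouse, and for each of the 7 the 3 genes of highest r over clusters. Alternatives were 500 and 2000 UMIs, full UMIs, another seed, a minimum of 20 cells, at least 2 UMIs, DESeq2, no low-count filter, no block, stricter cell filters, no high Scrublet scores, resolutions 0.2 and 1.0, leaving out mouse 2, and, added after seeing the data, few ganglion marker UMIs.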

Additional observations from a re-analysis of the deposited data

Results flagged for a closer look

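Of 32 sets of 9 or 10 mice looked at, 9 had 1 mouse whose gap to the nearest other mouse was a large part of the whole range. The cut-off flags about 1 in 20 sets of independent, normally distributed values. These sets share mice and cells, so the 9 cannot be set against that rate. Mouse 2 had 0 CPM of Igfbpl1, Fam131c and Pak3 on the cycling side, and mouse 6 had 0 CPM of Fam131c with H_MYCN. The size of those log2 ratios depends on the 10 CPM added to both sides. Mouse 6 had 70.4% of neuroblasts with a cell cycle UMI, and the next mouse 61.7%. In the split by H_MYCN, mouse 7 had a log2 ratio of -1.56 for Igfbpl1 (next -0.34), and mouse 6 one of -2.40 for Fam131c (next -0.78). In the cell cycle split mouse 2, which has 14 and 10 cells there, was far from the others for 4 genes: its log2 ratio was 1.74 for Egln3 (next 0.56), -4.39 for Igfbpl1 (next -0.55), -3.46 for Fam131c (next -1.05) and -4.39 for Pak3 (next -1.44). Among cells without a cell cycle UMI, mouse 5 had 1.33 for Egln3 (next 0.26) and mouse 7 had -1.22 for Igfbpl1 (next 0.09) in the split by H_MYCN.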

How the results depend on the processing

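All 7 genes were highest in neuroblasts in 5 of 5 alternatives, and 0 relations with the cycling share passed the permutation test in 5 of 5. The split by H_MYCN called 6 genes; it called 3 with 500 UMIs, 20 with 2000 UMIs, 99 with full UMIs, 43 with no low-count filter, 3 with stricter cell filters, 2 without high Scrublet scores and, with at most 2 ganglion marker UMIs (chosen after seeing the data), 0. No chosen gene that entered a fit passed in either split by H_MYCN under any of the 15 alternatives, edgeR or DESeq2. Nothing is read of that, given the choice. In the first split Fam131c and Shox2 entered in 15 of 16 settings, and in the split without cycling cells Pak3 entered in 13, Shox2 in 12 and Fam131c in none. The cell cycle split called 664 genes, and 324 with 500 UMIs, 1178 with 2000, 2262 with full UMIs and 255 with few ganglion UMIs. Among cells without a cell cycle UMI the 10 calls became 36 with 2000 UMIs, 158 with full UMIs, 53 with no filter, 3 with DESeq2, 6 at resolution 1.0, 4 without high Scrublet scores, 0 with few ganglion UMIs (8 mice) and 0 with at least 2 H_MYCN UMIs, where only 2 mice entered. With no block for the mouse, which drops the pairing of its sums, the 3 splits called 0, 251 and 0 genes. Without replicate 2 they called 6, 633 and 10. Signs turned in the cell cycle split for Pak3 (0.18) and H_MYCN (0.0719) with 500 UMIs, Dlk1 (0.11) with 2000, H_MYCN (0.0713) with another seed, Egln3 (0.13), Dlk1 (0.12) and H_MYCN (0.17) with full UMIs, and Egln3 (0.0226) and Dlk1 (0.00246) with no filter, all log2 fold changes; none of these passed. Shox2 stayed between -1.45 and -0.92 and Agtr2 between -0.48 and -0.18. Shox2 passed in 15 of 15 alternatives and Agtr2 in 11, and Igfbpl1 passed in 3, Fam131c in 2 and Nfe2l3 in 2. Nothing is read of these calls, given the choice. Apart from the fewer mice and cells named, the cause was not tested.

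With 1 mouse at 6 weeks and 1 WT mouse, age and genotype cannot be told apart from the animal or the library. Absence of a UMI at 1000 UMIs does not show absence of the transcript, so both splits mix cells. The genes took part in the clustering, and their levels by class or cluster are no test. The WT cells of the neuroblast class lacked 8 of 15 markers and do not stand for WT neuroblasts. Mouse 2 gave 24 neuroblasts of enough depth.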
